A study of Mus musculus with 6 samples.

Results

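Potassium channel subunits are described here as a family in the dorsal root ganglia (DRGs) of Meis1 conditional knockout (Meis1cko) mice. Meis1, the gene of a homeodomain transcription factor, was deleted in the nociceptor lineage of these mice. Members are all genes whose symbol is Kcn followed by letters and a closing number, and for which the array annotation lists at least 1 probe set under that gene alone. They are 80 of the 18193 genes measured in this way and hold 158 of 45037 probe sets. RefSeq names 92 genes in this form, and the other 12 were not analysed here. A gene's values are those of its brightest probe set, the one with the highest mean log2 intensity over the 6 arrays, unless another is named. All differences are log2 intensity in Meis1cko minus log2 intensity in control DRGs.

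Each of the 3 Meis1cko and 3 control mice gave RNA of its cervical, thoracic and lumbar ganglia at postnatal day 60 (about 2 months) to 1 Affymetrix mouse genome array. Meis1cko mice combined a conditional Meis1 allele, from which Cre cuts out a homeodomain exon, with the Nav1.8-Cre transgene, whose promoter limits the deletion to the nociceptor lineage. By the RNA staining of the study, a subset of developing nociceptors carried Meis1. At postnatal day 60 it was seen only in a small group of large neurons and no longer in nociceptors. The controls' alleles are not stated for the arrays, although the behavioural tests of the study used Meis1F/F littermates. Mice of both sexes were used in the study, the sex of each array's mouse is not given, and the sample labels name Trizol for the RNA extraction where the methods name an RNeasy kit. The study reported fewer nociceptors with Meis1 RNA in young Meis1cko mice than in controls, and less Meis1 RNA in Meis1cko DRGs by RT-PCR. On the arrays, the brightest probe set of Meis1 read 110, 144 and 90.2 in control and 66.0, 72.1 and 64.2 in Meis1cko DRGs. These groups did not overlap, and the difference was -0.74 (SE 0.18, unadjusted p = 0.00434 and adjusted p = 1 from limma). The other 2 probe sets of Meis1 gave -0.16, with overlap, and 0.13, where all Meis1cko mice lay above all controls. Whether these probes lie within the deleted exon is not given in the sources used here. Satellite glia, Schwann cells, vessels and connective tissue gave RNA to the same samples, and in such bulk tissue fewer cells of a type and less RNA per cell cannot be told apart.

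Potassium channels let potassium leave the cell and so set the resting potential, end the action potential and limit repetitive firing. In DRG neurons, Shaker-type channels at the juxtaparanodes of myelinated axons and the transient A-type current of Shal channels delay firing, the M current of KCNQ channels damps bursts, and tandem-pore leak channels respond to lipids, stretch and temperature. Satellite glia, which wrap the neuronal cell bodies, clear potassium through the inward rectifier encoded by Kcnj10.

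None of the 80 genes passed limma's test after Benjamini-Hochberg adjustment over all probe sets at 0.05. The count was 0 higher and 0 lower, against 0.0055% of all genes higher and 0% lower. At an unadjusted p under 0.05 there were 2 members, 2.5% of them, against 2.56% of all genes. These were Kcnc4, the Shaw-family subunit whose channels inactivate fast, and Kcnj10. Pairing the arrays by replicate number gave 5 members, 6.25%, against 7.11% of all genes, with the addition of Kcnk13, Kcns1 and Kcnv1, and the smallest adjusted p was 0.495 (limma with the replicate block), that of Kcnj10. The test named in the study's methods, without moderated variances, gave 6 members at an unadjusted p under 0.05 (7.5%, against 3.31% of all genes) and 0 after adjustment. The count of 2 rests on single arrays. It was 0 without control replicate 1 (1.53% of all genes), 0 without control replicate 2 (1.93%) and 1 without control replicate 3 (2.83%). It was 5 without Meis1cko replicate 1 (3.73% of all genes) and 4 without Meis1cko replicate 3 (4.16%). No member combined an unadjusted p under 0.05 with a difference over 1.5-fold, the thresholds of the methods, where 0.781% of all genes did. This count was 1 without Meis1cko replicate 1 (1.14% of all genes) and 2 without Meis1cko replicate 3 (1.48%).

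The family's differences were centred near 0. The median over the 80 genes was 0.011, beside -0.014 over all genes. Above 0 were 42 members (52.5%, against 45.8% of all genes), and 38 were below. For 48 of 80 members, 60%, the 95% interval of the difference lay within 1.5-fold in both directions, against 73.0% of all genes. For these 48 genes, each taken singly, the interval holds no difference over 1.5-fold, and for the rest of the family it does. In 4 members, 5.0%, every Meis1cko mouse lay above every control mouse (Kcna1, Kcnc4, Kcnj3 and Kcnk1), against 3.12% of all genes. In 3 members, 3.75%, every Meis1cko mouse lay below every control mouse (Kcnab2, Kcnj10 and Kcnv1), against 3.82% of all genes. For such a separation of 3 mice from 3 an exact two-sided permutation test gives p = 0.1, the smallest it can give.

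**Figure D1:**
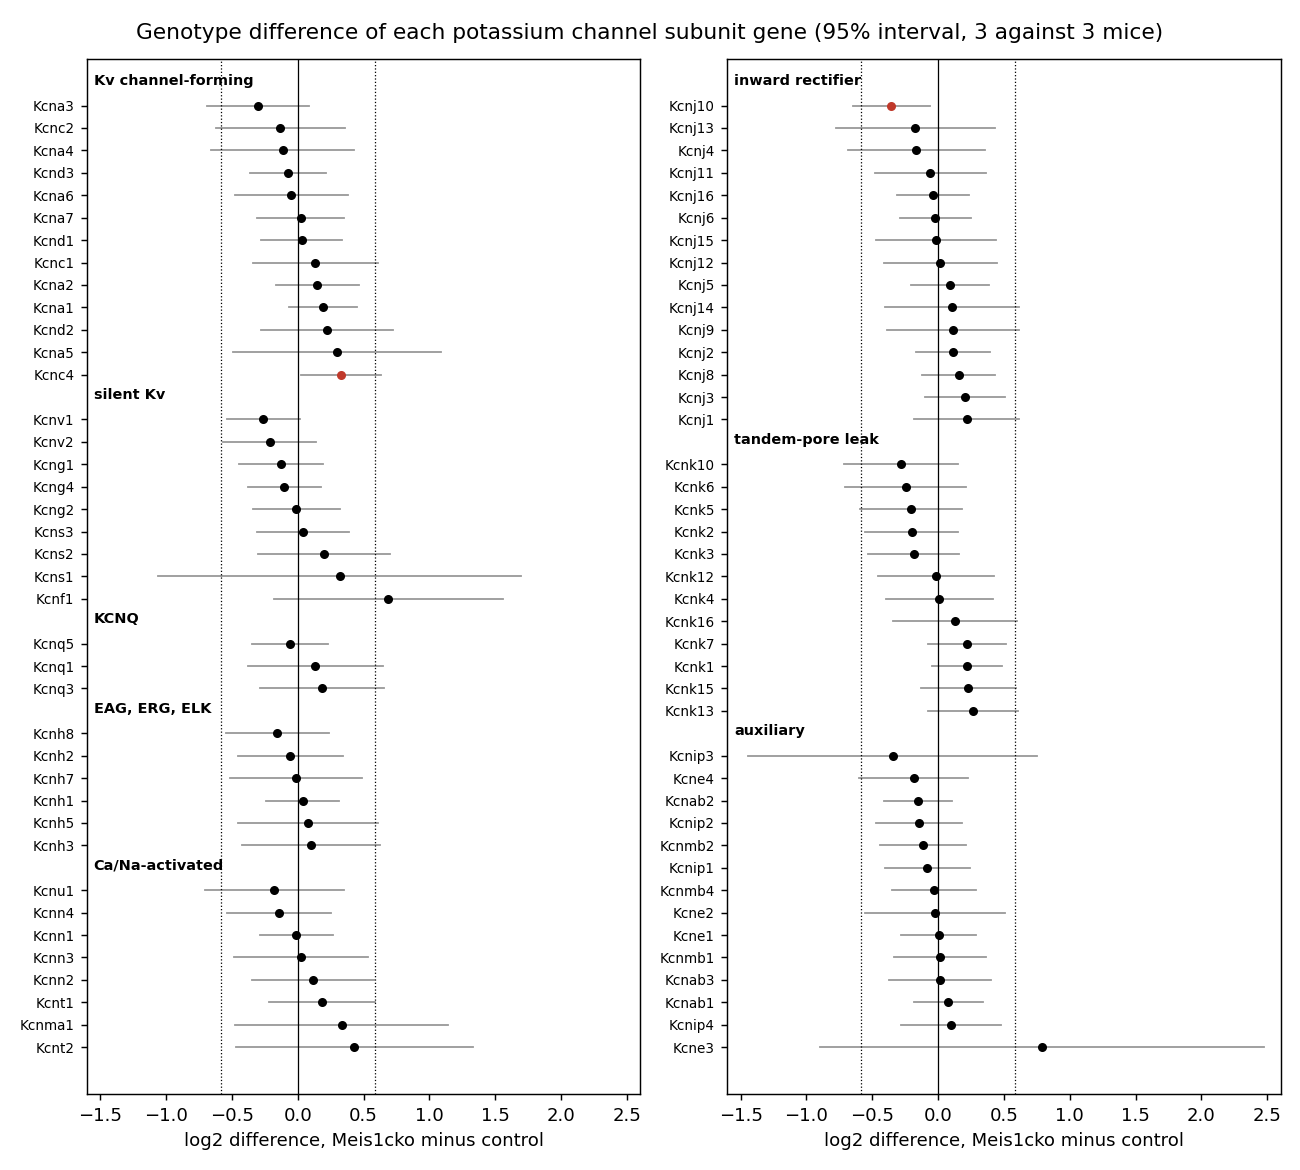
Log2 difference in intensity (Meis1cko minus control, horizontal axis) of the brightest probe set of each of the 80 genes, grouped by role, with bars for the 95% interval from limma and dotted lines at 1.5-fold in either direction. The genes drawn in red, Kcnc4 at 0.33 and Kcnj10 at -0.36, had an unadjusted p under 0.05, and neither passed after adjustment.

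The promoters of 2 genes are shown because only these had an unadjusted p under 0.05 on their brightest probe set, in the fit without the replicate block. Each line is the 250 bases before the RefSeq start (build GRCm38.p6), 5′ to 3′ on the gene's strand, with CG dinucleotides in capitals.
Kcnj10, chr1:172340960-172341209, plus strand: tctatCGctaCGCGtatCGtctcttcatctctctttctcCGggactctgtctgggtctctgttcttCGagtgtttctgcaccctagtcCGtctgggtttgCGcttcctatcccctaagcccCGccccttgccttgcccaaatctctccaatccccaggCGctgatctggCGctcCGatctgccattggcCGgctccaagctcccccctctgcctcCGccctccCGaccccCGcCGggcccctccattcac
Kcnc4, chr3:107458899-107459148, minus strand: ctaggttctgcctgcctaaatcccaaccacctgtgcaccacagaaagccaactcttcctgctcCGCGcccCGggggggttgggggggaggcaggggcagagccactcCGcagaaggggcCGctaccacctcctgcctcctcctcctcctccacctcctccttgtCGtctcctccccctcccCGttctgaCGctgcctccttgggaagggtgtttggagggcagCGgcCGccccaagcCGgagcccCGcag

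The core motif of Meis proteins, TGACAG, was searched on both strands of these windows. Kcnj10 has 17 CG dinucleotides there and Kcnc4 12, beside a median of 7 over the family's entries and 6 over all, and the 6 letters occur in neither. Promoter entries exist for 61 of the 80 genes. The motif occurs in 15 of their 86 entries (17.4%, in 13 genes), against 15.9% of all 32851 entries, and a match is a description of letters, not of binding. The following 4 of those 13 genes, chosen with their values known, encode subunits of the Shaker, Shal and ERG currents, and their lines have the motif or its complement in capitals on the gene's strand.
Kcna4, chr2:107290531-107290570, plus strand: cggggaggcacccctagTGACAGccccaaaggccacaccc
Kcnip2, chr19:45816075-45816114, minus strand: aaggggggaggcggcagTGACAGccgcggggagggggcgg
Kcnip4, chr5:49285750-49285789, minus strand: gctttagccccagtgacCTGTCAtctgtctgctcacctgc
Kcnh2, chr5:24329768-24329807, minus strand: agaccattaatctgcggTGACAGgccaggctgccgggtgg
Their differences between the genotypes were -0.12, -0.14, 0.10 and -0.06, and all 4 overlapped.

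Most of the family, like most genes measured, was read above the dim end of the array. In 53 of 80 genes (66.2%) the brightest probe set lay at or above the median of all probe sets on each of the 6 arrays, compared with 62.7% of all genes. Array medians were 62.5 to 65.5. Only Kcne2, Kcnj2 and Kcnv2 (3.75%) lay below the 25th percentile, 20.8 to 22.6, on all arrays, compared with 10.6% of all genes. The other 24 lay between. An intensity depends on the probes as well as on the transcript, so that the intensities of different genes do not rank their amounts of RNA. Among roles, the readings above the median on all arrays were 11 of 13 Kv alpha subunits, 7 of 8 pore subunits of the calcium- and sodium-activated channels and their relative Kcnu1, 10 of 14 auxiliary subunits, 8 of 12 tandem-pore channels, 6 of 9 silent Kv subunits, 4 of 6 EAG, ERG and ELK subunits, 2 of 3 KCNQ subunits and 5 of 15 inward rectifiers.

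**Figure D2:**
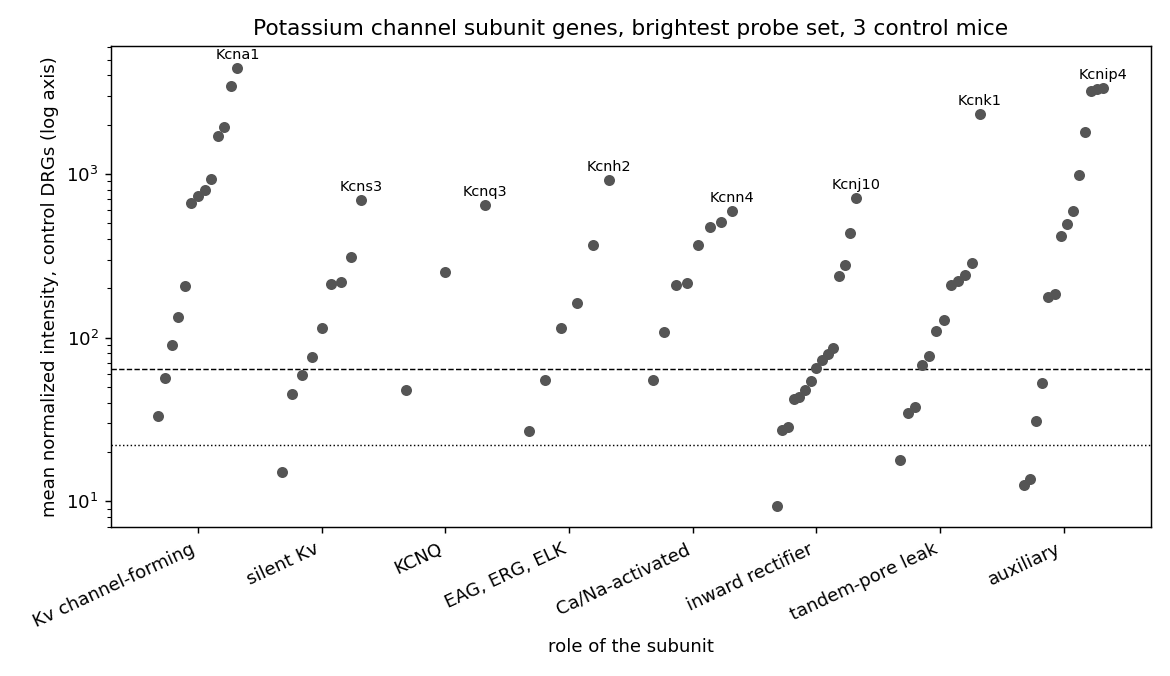
Mean intensity of the brightest probe set in the 3 control DRGs (vertical log axis, arbitrary units), 1 point per gene in columns by role. The median of all probe sets is a dashed line and the 25th percentile a dotted line. Most Kv alpha and auxiliary subunits lie above the median, and the inward rectifiers lie on both sides of it.

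Among the Kv alpha subunits, which form voltage-gated channels on their own, Kcnc4 stood apart between the genotypes. Its intensity was 978, 973 and 826 in control replicates 1 to 3 and 1098, 1277 and 1111 in the Meis1cko replicates. All 3 Meis1cko mice lay above all 3 controls. The means were 926 ± 86.5 and 1162 ± 100 (SD, n = 3 mice each). The difference of 0.33 (SE 0.13, 95% interval 0.02 to 0.63) had an adjusted p of 1 from limma, and it ranged from 0.25 to 0.37 when each mouse was left out in turn. The dimmer probe set of the gene read 211, 196 and 245 in control and 238, 223 and 369 in Meis1cko DRGs, a difference of 0.32 with overlapping groups.

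Kcna1, a Shaker channel of juxtaparanodes, had the brightest reading of the Kv alpha subunits. Its values were 4475, 4365 and 4510 in control and 5072, 4838 and 5348 in Meis1cko DRGs. The groups did not overlap, and the difference was 0.19 (SE 0.11). Of its other 3 probe sets, the 2 bright ones also separated the groups, at 0.21 and 0.23, and the dimmest gave 0.12. The 4 markers of large myelinated neurons that were listed beside the family, cells rich in such channels, were all above 0 in difference as well. Ntrk3 was at 0.48 (SE 0.11), but Nefh, Pvalb and Scn1a were at 0.06 (SE 0.12), 0.05 (SE 0.11) and 0.10 (SE 0.25). The summed intensity of the 4, most of it from Nefh, was 15400 to 16550 in control and 16300 to 17710 in Meis1cko DRGs. The part of these cells in the Kcna1 values was not tested. Kcna2, its partner in heteromeric channels, read 1907, 2000 and 1878 in control and 1923, 2484 and 2038 in Meis1cko DRGs, a difference of 0.15 (SE 0.13) with overlap.

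The other Kv alpha subunits overlapped between the genotypes. Kcna4, a fast-inactivating Shaker channel of small neurons, had a difference of -0.12 (SE 0.23), and Kcna6 one of -0.05. The Shaw channels Kcnc1 and Kcnc2, which speed repolarization, had differences of 0.13 (SE 0.20) and -0.13 (SE 0.21). The Shal channels carry the A-type current. Kcnd3 read 3749, 3388 and 3178 in control and 3245, 3480 and 3069 in Meis1cko DRGs, a difference of -0.07 (SE 0.12), Kcnd1 had a difference of 0.03 (SE 0.13) and Kcnd2 one of 0.22 (SE 0.21). Kcna3, on a probe set below the array median, had the lowest difference of the group, -0.30 (SE 0.17), and Kcna5 was at 0.30 (SE 0.34).

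Silent Kv subunits do not form channels alone and change the gating of the Shab channels they join. Kcnv1 read 286, 338 and 307 in control and 268, 259 and 248 in Meis1cko DRGs. Every Meis1cko mouse lay below every control mouse, and the difference was -0.26 (SE 0.12, adjusted p = 1 from limma). Its other 2 probe sets also had differences below 0. The brighter of them read 264, 232 and 244 in control and 229, 195 and 181 in Meis1cko DRGs (-0.30), again without overlap. The dimmer read 66.5, 101 and 101 in control and 43.5, 51.2 and 72.3 in Meis1cko DRGs (-0.69), where Meis1cko replicate 3 lay above control replicate 1.

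Kcns1, whose product joins Shab channels in sensory neurons, read 133, 132 and 395 in control and 176, 145 and 529 in Meis1cko DRGs, so that both replicate 3 mice stood far above the other 4. The difference was 0.32 (SE 0.59), or 0.32 (SE 0.11) with the replicate block. Kcns3 read 621, 690 and 781 in control and 618, 751 and 785 in Meis1cko DRGs, a difference of 0.04 (SE 0.15). Kcnf1 had the largest difference of the silent subunits, 0.69 (SE 0.37), but the mice spread widely, at 73.4, 60.8 and 42.0 in control and 52.1, 134 and 113 in Meis1cko DRGs, close to the array median. The 3 Kcng genes had differences of -0.13 to -0.01.

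KCNQ subunits carry the M current, a slow current that holds neurons below threshold. Kcnq3 read 739, 696 and 512 in control and 863, 764 and 587 in Meis1cko DRGs. The replicates of the 2 genotypes fell in the same order and overlapped, and the difference was 0.18 (SE 0.20, or 0.10 with the replicate block). Kcnq5 had a difference of -0.06 (SE 0.12) and Kcnq1, a channel of heart and epithelia, one of 0.13 (SE 0.22) on a probe set that did not lie above the array median on all arrays. The 6 EAG, ERG and ELK subunits had differences of -0.16 to 0.10. The brightest reading among them was that of Kcnh2, the ERG channel, with 1030, 965 and 755 in control and 892, 997 and 751 in Meis1cko DRGs, a difference of -0.06 (SE 0.17). A dimmer probe set of the EAG channel Kcnh1 separated the groups at 305, 295 and 277 against 419, 430 and 355, a difference of 0.45 (SE 0.13), while the brightest probe set of the same gene gave 0.04 (SE 0.12).

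Channels opened by calcium or sodium shape the afterpotentials that follow a spike. Kcnma1, the pore subunit of the large-conductance BK channel, read 229, 254 and 147 in control and 412, 247 and 168 in Meis1cko DRGs. The groups overlapped, and Meis1cko replicate 1 alone lay above all controls. The difference was 0.33 (SE 0.35). A probe set of the gene at a similar level gave -0.04 (SE 0.20), and its dimmer ones gave 0.35, 0.23 and -0.19. The sodium-activated Kcnt1 read 499, 538 and 391 in control and 627, 519 and 473 in Meis1cko DRGs, and its 3 probe sets had differences of 0.18, 0.20 and 0.24. Its relative Kcnt2 had a difference of 0.43 (SE 0.38), with 92.0, 136 and 95.6 in control against 202, 193 and 74.9 in Meis1cko DRGs, where replicate 3 was below every control. The small-conductance channel Kcnn1 had a difference of -0.01 (SE 0.12), the intermediate-conductance Kcnn4, which had the brightest reading of the group, one of -0.14 (SE 0.17). Kcnu1, a relative of Kcnma1 that is opened by voltage and alkaline pH and best known from sperm, was grouped with them and had a difference of -0.18 (SE 0.22).

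Inward rectifiers pass potassium best near the resting potential, and Kcnj10 had the lowest difference of all 80 genes. It read 768, 720 and 644 in control and 575, 574 and 513 in Meis1cko DRGs. Every Meis1cko mouse lay below every control mouse. The means were 710.5 ± 62.6 and 554 ± 35.5 (SD, n = 3 mice each). The difference of -0.36 (SE 0.12, 95% interval -0.65 to -0.07) had an adjusted p of 1 from limma, and 0.495 with the replicate block. Leaving out each mouse in turn gave -0.43 to -0.30. The gene has 1 probe set on the array, so that no other one bears on the value. Kcnj10 had itself been listed as a satellite glia marker. Of the other 3 markers of these cells, Gja1, the gap junction gene, was at -0.59, Fabp7 at -0.03 and Glul, the glutamine synthetase gene, at 0.24. The summed intensity of these 3, most of it from Fabp7 and Glul, was 13360 to 15510 in control and 13770 to 16340 in Meis1cko DRGs.

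Markers of some other non-neuronal cells also had differences below 0. All 3 fibroblast markers did, with Lum, a proteoglycan gene, at -1.34 (adjusted p = 0.0686 from limma, 0.00717 with the replicate block), Col1a1 at -0.54 and Dcn at -0.42, and a summed intensity of 6037 to 9086 in control and 4172 to 5718 in Meis1cko DRGs. All 3 macrophage markers did (-0.40 to -0.07, sum 546 to 974 in control and 376 to 710 in Meis1cko DRGs), as did the 2 Schwann cell markers measured of 4 listed (-0.13 and -0.06, sum 23880 to 26250 and 22600 to 23960). Other lists did not. All 3 mural cell markers were above 0 (0.15 to 0.76), as were 2 of the 3 endothelial markers (-0.03 to 0.24). Skeletal muscle markers went both ways (-0.34 to 0.15), and the 1 blood marker measured was at 0.02. Of the 4 nociceptor markers measured of 5 listed, 3 were above 0. These were Scn10a, the Nav1.8 gene, at 0.48, Scn11a at 0.06 and Prph at 0.0048, and Trpv1 was at -0.22. The summed intensity of the 4 was 23340 to 24600 in control and 23300 to 25550 in Meis1cko DRGs. The Cre transgene of the Meis1cko mice uses a fragment of the Nav1.8 promoter region, and its part in the Scn10a value was not tested. No marker of these lists was at 0 on any array. The part of cell content in the Kcnj10 value was not tested.

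Most of the other inward rectifiers did not read above the array median on all arrays. Kcnj3, a G protein-gated subunit, read 241, 251 and 222 in control and 310, 264 and 252 in Meis1cko DRGs, which separated the groups by a narrow margin at 0.21 (SE 0.13). Its other 3 probe sets gave 0.02, 0.04 and 0.06. Kcnj8, the pore of the ATP-sensitive channel of mural cells, had a difference of 0.15 (SE 0.12) at an intensity of 43.3 in control DRGs, below the array median. The 3 mural cell markers, Kcnj8 among them, were all above 0 (0.15 to 0.76, the highest being the smooth muscle actin gene Acta2). Kcnj11, the corresponding subunit of neurons, had a difference of -0.06 (SE 0.18), and its partner Abcc8, the sulfonylurea receptor, one of 0.25 (SE 0.22).

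Tandem-pore channels carry the leak current. Kcnk1 had the brightest reading of them, with 2401, 2298 and 2283 in control and 2717, 2882 and 2537 in Meis1cko DRGs. The groups did not overlap, and the difference was 0.22 (SE 0.11, adjusted p = 1 from limma), with 0.15 on its other probe set. Kcnk13 read 223, 221 and 183 in control and 282, 251 and 221 in Meis1cko DRGs, a difference of 0.27 with an SE of 0.15, or 0.10 with the replicate block. Kcnk2 and Kcnk4, mechanically and thermally gated channels of sensory neurons, had differences of -0.20 (SE 0.15) and 0.01 (SE 0.17), and Kcnk10, of the same subfamily, one of -0.28 (SE 0.18). The acid-sensitive Kcnk3 gave -0.19 (SE 0.15) on its brightest probe set and 0.29 (SE 0.12) on another, so that its probe sets disagreed in sign.

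Auxiliary subunits set the surface density and gating of the pores. Kcnab2, a cytoplasmic beta subunit of Shaker channels, read 3272, 3250 and 3365 in control and 2793, 3091 and 3010 in Meis1cko DRGs. Every Meis1cko mouse lay below every control mouse, at a difference of -0.15 (SE 0.11, adjusted p = 1 from limma). Kcnab1, another of these beta subunits, was at 0.08 (SE 0.11). The Kcnip genes encode calcium-binding partners of Shal channels. Kcnip4 read 2962, 3025 and 4101 in control and 3712, 3230 and 3741 in Meis1cko DRGs, a difference of 0.10 (SE 0.16), and Kcnip1 and Kcnip2 were at -0.08 (SE 0.14) and -0.14 (SE 0.14). Kcnip3 was at -0.35 with an SE of 0.47, since both replicate 3 mice read far above the rest (1437 and 1552, against 476 to 808). Kcnmb4 and Kcnmb1, beta subunits of the BK channel, had differences of -0.03 (SE 0.14) and 0.01 (SE 0.15). The largest difference of the family, 0.79 (SE 0.72) for Kcne3, came from Meis1cko replicate 1 alone, at 82.1 where the other 5 mice lay between 10.8 and 13.2.

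Of 24 genes of other families whose products bind, anchor or regulate these channels, 20 were measured. None passed after adjustment. Of the 20, 9 were above 0 in difference, against 45.8% of all genes, and the median was -0.01. At an unadjusted p under 0.05 there was 1 of 20 by the brightest probe set (5%, against 2.56% of all genes), and 4 of their 63 probe sets (6.35%, against 2.32% of all probe sets). The gene was Dpp10, a membrane partner that moves Shal channels to the surface and speeds their gating. It read 3639, 3871 and 3538 in control and 2376, 2545 and 2589 in Meis1cko DRGs. The groups stood far apart, with a difference of -0.56 (SE 0.11) and an adjusted p of 0.941 from limma, 0.201 with the replicate block. Its second probe set read 1520, 1535 and 1342 in control and 1206, 1157 and 1000 in Meis1cko DRGs, again without overlap (-0.39). The related Dpp6 was at -0.10 (SE 0.16), and Cntnap2, a juxtaparanodal protein, at -0.01. The probe sets of Cntn2, its juxtaparanodal partner, disagreed. The brightest was at 0.05 (SE 0.15). A dimmer one read 182, 191 and 242 in control and 346, 334 and 342 in Meis1cko DRGs, without overlap, at a difference of 0.74 (SE 0.14) and an adjusted p of 0.798 from limma, 0.137 with the replicate block. The other 2 were at 0.15 and 0.03. The remaining probe set of the 4 was a dim one of Ank2, an ankyrin gene, at 0.69 (SE 0.26), where the brightest of that gene was at 0.19 (SE 0.18). Dpp10 passed the threshold under array weights alone among the alternatives.

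**Figure D3:**
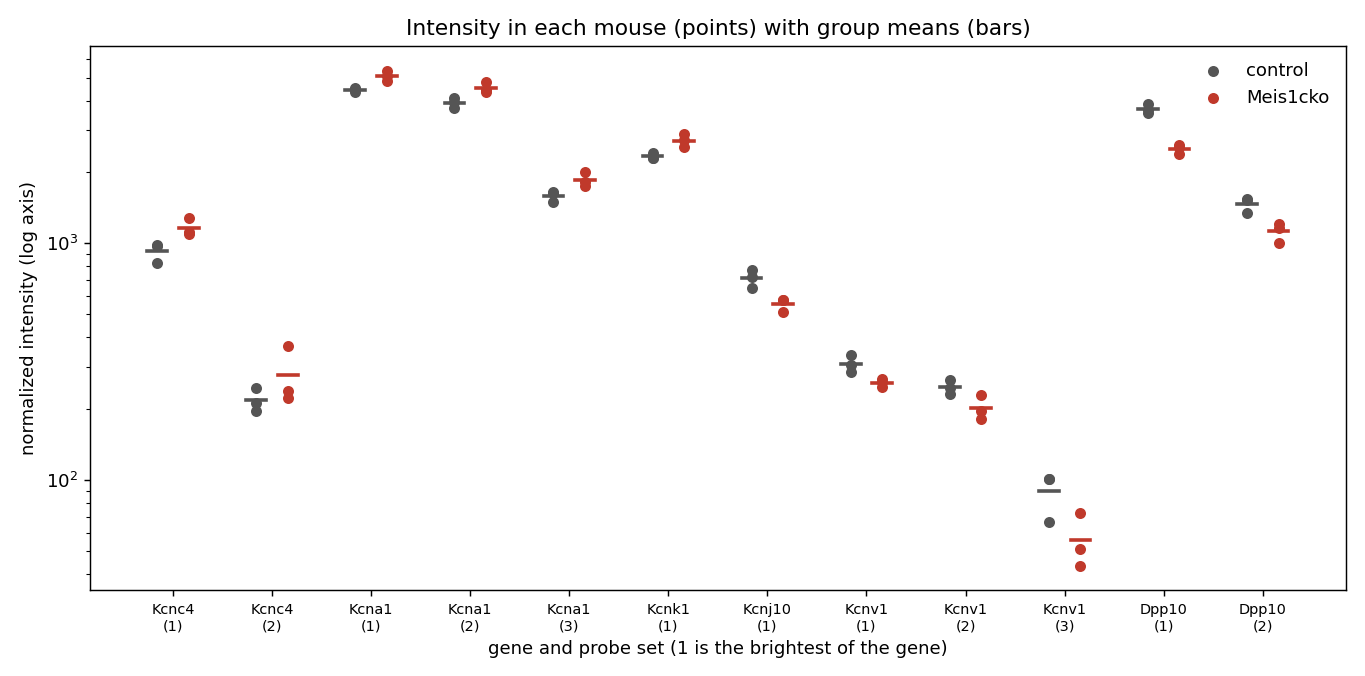
Intensity in each mouse (log axis, arbitrary units; grey points for control, red for Meis1cko, bars for the means of the 3 mice) for selected probe sets, numbered from the brightest, of Kcnc4, Kcna1, Kcnk1, Kcnj10, Kcnv1 and the partner gene Dpp10. For both Dpp10 probe sets and for Kcnj10 all 3 Meis1cko mice lie below the controls, and for the 3 bright Kcna1 probe sets and Kcnk1 all 3 lie above them.

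Probe sets of 1 gene were also compared with each other. Of the 24 genes with at least 2 probe sets above the array median on all arrays, 15 (62.5%) had differences of 1 sign throughout, against 53.5% of all genes with at least 2 such probe sets. At the level of single probe sets, 5 of 158 (3.16%) had an unadjusted p under 0.05, against 2.32% of all probe sets, and they belonged to Kcnc4, Kcnh1, Kcnj10, Kcnk3 and Kcnv1. For Kcnh1 and Kcnk3 the probe set in question was not the brightest of the gene.

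For some probe sets the replicate numbers lay farther apart than the genotypes. In 10 probe sets of 10 genes, 6.33% of the 158, the replicate 3 array read over 2-fold above the mean of replicates 1 and 2 in both genotypes, against 1.93% of all probe sets. None read over 2-fold below in both, against 0.318%. Only for Kcns1 was this the brightest probe set of its gene. A probe set of Kcnip2 read 125, 116 and 1479 in control and 135, 95.4 and 1207 in Meis1cko DRGs, and one of Kcnd1 83.6, 106 and 950 against 121, 88.4 and 1073. The others belonged to Kcnip4, Kcnd3, Kcnip3, Kcnab2, Kcnab1, Kcns3 and Kcnk1. For all 10, the genotype difference lay between -0.38 and 0.32, while replicate 3 stood 1.05 to 3.62 above in log2. The control probe sets of Actb, which read its transcript near both ends, gave a 3′ minus 5′ log2 difference of 0.42 to 0.44 on the replicate 3 arrays and 1.23 to 1.66 on the other 4. The part of RNA quality or labelling in these values was not tested.

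**Figure D4:**
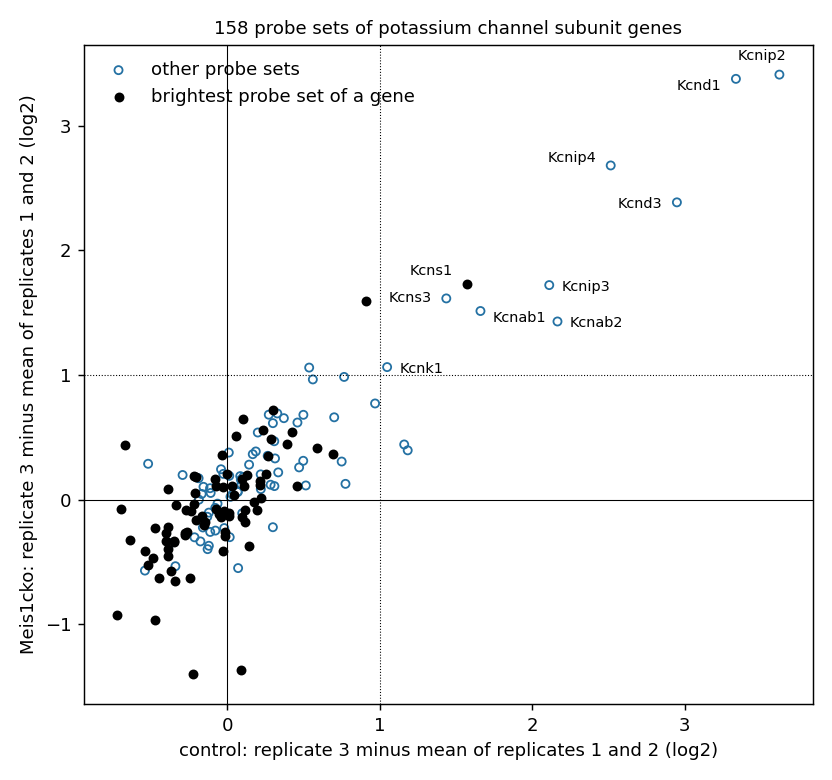
Log2 intensity of replicate 3 minus the mean of replicates 1 and 2, in control (horizontal axis) and Meis1cko (vertical axis) DRGs, for the 158 probe sets, with filled points for the brightest probe set of each gene. The 10 named points lie over 2-fold (1 on the log2 scale) above in both genotypes, and 9 of them are not the brightest of their gene.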

How the data were processed

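Total RNA of whole DRGs was hybridized to 1 array per mouse. The authors read the images with GeneChip Command Console and analysed them in GeneSpring, and deposited normalized intensity values on a linear scale for 45037 probe sets besides 64 control probe sets, which were left out of the tests. The normalization method is not given in the sources used here, and the number of arrays, 3 per genotype, limits the precision. The array annotation pairs 34945 probe sets with 1 gene, 932 with several and 9160 with none; all 80 member symbols match RefSeq. No sample column was left out.

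Intensities were taken to log2, and Meis1cko was compared with control DRGs with limma's moderated linear model (limma 3.58.1, R 4.3.3) and p-values adjusted by the Benjamini-Hochberg method across the 45037 probe sets (threshold 0.05). Both genotypes have arrays labelled 1, 2 and 3. Over the 158 member probe sets, same-numbered arrays deviated from their group means together (correlations of 0.542, 0.764 and 0.883, and 0.424, 0.535 and 0.766 over all probe sets). Control 1 with Meis1cko 2 gave 0.605 (0.319 over all), and control 2 with Meis1cko 1 gave 0.437 (0.337). Replicate 3 against replicates 1 and 2 of the other genotype gave -0.785 to -0.559. The deviations of a genotype's arrays cancel out for each probe set, so these negative values are no separate evidence beside the 0.883. The same-number correlation was highest for replicate 3, and replicates 1 and 2 were less clearly paired by number. The replicate block takes the numbers as pairs, although the study does not say what they stand for. Alternatives were an intensity trend, array weights, the replicate block, quantile normalization, offsets of 16 and 50, a filter at the median, the mean over a gene's probe sets, each array left out, both replicate 3 arrays left out, and the t-test of the methods.

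Genes were named if they had an unadjusted p under 0.05, had the brightest reading of their role group, or have a known place in DRG cells; genes whose groups did not overlap, those whose probe sets or replicates disagreed and those shown for their promoters were named after their values were seen. The members, role groups, partner list and markers were chosen with earlier results of these data known. Promoter sequences are those of RefSeq for GRCm38.p6.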

Additional observations from a re-analysis of the deposited data

How the results depend on the processing

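No member passed the adjusted threshold under any alternative run, in either direction, and the lowest adjusted p was 0.111, that of Kcnf1 with array weights (limma). The count of members at an unadjusted p under 0.05, 2, became 19 with array weights (23.8% of members, beside 15.4% of all genes), 5 with the replicate block, which pairs the arrays (6.25% beside 7.11%), 5 and 6 with offsets of 16 and 50 (6.25% beside 3.25% and 7.5% beside 3.72%), 4 without both replicate 3 arrays (5% beside 4.41%), 6 with the methods' t-test (7.5% beside 3.31%), and 0 to 5 with each array left out. The count past the methods' thresholds, 0, became 3 with array weights (1.47% of all genes), 1 without both replicate 3 arrays (1.32%) and 0 to 2 with each array left out. Of the partner genes array weights called 1, Dpp10, and no other alternative run for them called any. The median difference of 0.011, beside -0.014 over all genes, became 0.035 with array weights (all genes -0.013). It was 0.025 with quantile normalization (all genes 0) and -0.010 over probe sets above the median (all genes -0.018). With each array left out it ranged from -0.0085 to 0.018. The values below 0 were -0.0085 without control replicate 2 (all genes -0.0062) and -0.0076 without Meis1cko replicate 3 (all genes 0.0097).

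The alternatives were run for 53 genes, the 46 members given with single values by their brightest probe set, 6 partners and Meis1, and 27 of the 53 kept their sign throughout. With array weights the sign turned for Kcnh2 (0.047), Kcnd3 (0.0066), Kcne3 (-0.011), Kcnd1 (-0.045), Kcnq1 (-0.0095), Kcnq5 (0.012), Kcnj11 (0.025) and Cntn2 (-0.031). In the mean over probe sets it turned for Kcnab1 (-0.069), Kcns3 (-0.0205), Kcnk3 (0.016), Kcnq5 (0.0165), Kcnj11 (0.033), Kcnmb1 (-0.028), Dpp6 (0.040) and Cntnap2 (0.070). It turned with quantile normalization for Kcnn1 (0.022) and Cntnap2 (0.018), and without both replicate 3 arrays for Kcnn1 (0.012), Kcnq1 (-0.048) and Kcnq5 (0.023). With each array left out it turned within -0.19 to 0.054 for Kcnh2, -0.039 to 0.15 for Kcns3, -0.27 to 0.093 for Kcna4, -0.013 to 0.28 for Kcnc1, -0.26 to 0.84 for Kcns1, -0.0041 to 0.64 for Kcnma1, -0.12 to 0.042 for Kcnmb4, -0.079 to 0.029 for Kcnn1, -0.11 to 0.15 for Kcnk4, -0.17 to 1.29 for Kcne3, -0.14 to 0.013 for Kcnip1, -0.036 to 0.11 for Kcnd1, -0.065 to 0.62 for Kcna5, -0.18 to 0.082 for Kcna6, -0.25 to 0.085 for Kcnc2, -0.082 to 0.31 for Kcnq1, -0.11 to 0.029 for Kcnq5, -0.012 to 0.098 for Kcnh1, -0.18 to 0.10 for Kcnj11, -0.11 to 0.087 for Kcnmb1, -0.21 to 0.0068 for Dpp6, -0.044 to 0.025 for Cntnap2 and -0.051 to 0.13 for Cntn2. The causes were not tested. The replicate block changed no adjusted call of a member or partner gene. Dim probe sets, such as those of Kcne2, Kcnj2 and Kcnv2, limit what can be read for their genes.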

Other observations

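Genes whose symbols begin like those of the channels but which do not have the family's form were left out of all counts above. Kcne1l, a small auxiliary subunit, read 31.9, 31.9 and 25.6 in control and 38.0, 32.3 and 37.1 in Meis1cko DRGs, a log2 difference of 0.27 (SE 0.14, adjusted p = 1 from limma) with no overlap between the genotypes. Kcnq1ot1, the imprinted noncoding RNA transcribed across the Kcnq1 gene, has 6 probe sets with differences of -0.18 to 0.33, and the brightest of them read 49.2, 55.0 and 40.7 in control and 68.1, 55.1 and 58.6 in Meis1cko DRGs. The antisense transcripts of Kcnmb4 on the array, Kcnmb4os1 and Kcnmb4os2, were at 0.17 (SE 0.14) and -0.11 (SE 0.20), on probe sets below the array median or around it.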
